A study of Mus musculus with 24 samples.

Results

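The comparison described here is the overnight response of cultured muscle cells from undernourished mouse offspring to a medium poor in substrates. It covers 12 of the 24 arrays of the study, 6 from limited medium and 6 from standard medium, chosen by their labels alone. All cells were primary cells isolated from quadriceps muscle, and the mice were of the outbred ICR strain. The dams of this group were given 50% of the food eaten by controls at the same stage, from day 12.5 of gestation until delivery. They then had free access to chow, and their litters were equalized to 8 pups. Cells were expanded in medium with 5.5 mM glucose, 20% fetal bovine serum and basic fibroblast growth factor. At about 90% confluency they were differentiated at the same glucose with 2% serum, which is the standard medium. The limited medium had glucose at 0.5 mM, glutamine at 1 mM, carnitine at 0.5 mM and 1% serum, so the media differed in several components at once, whose parts in a difference cannot be told apart. The remaining 12 arrays come from offspring of freely fed control dams, in the same media. Their values are set beside those of the undernourished group, and the medium effects of the 2 diets are compared. The control arrays also enter the fit, where they add to the estimate of the spread behind the p-values of the undernourished group. The age of the offspring is not given in the sources used here.

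Each array title carries a culture number, and the undernourished group has the numbers 1, 4, 8, 9, 12 and 20, each on 1 standard and 1 limited array. Whether it marks an animal, a flask or something else is not stated, so the p-values measure only how these samples vary, and some of that variation may be technical. A difference within a culture is the value on its limited array minus that on its standard array.

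The endoplasmic reticulum folds proteins that are to be secreted or placed in membranes. When unfolded proteins collect there, the sensors PERK, IRE1 and ATF6 start the unfolded protein response, which raises chaperones, oxidoreductases and the machinery that exports misfolded proteins for degradation. PERK acts through phosphorylation of the initiation factor eIF2 and translation of ATF4, a route shared with a sensor of amino acid shortage and called the integrated stress response. Muscle cells also read glucose through the transcription factor MondoA, whose best known target is Txnip, and sterols through SREBP2, which drives the genes of cholesterol synthesis.

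The array values are log2 signal for 22180 genes, with array medians from 5.60 to 5.81. Markers of differentiated myotubes averaged 12.30 ± 0.07 in standard and 12.38 ± 0.08 in limited medium (log2 signal, SD, n = 6), and limma called 0 of 15 of them, with 2 at an unadjusted p under 0.05. Markers of satellite cells and myoblasts averaged 8.55 ± 0.20 and 8.45 ± 0.07. Of these, 1 of 13 fell, the adhesion molecule Vcam1, by 0.59 ± 0.15 SE, against 0.735% of all genes. The lists of fibroblast, endothelial, leukocyte, smooth muscle, adipocyte, glial and tenocyte markers had 0 members called by limma, with 0 or 1 of each at an unadjusted p under 0.05. Culture 20 stood apart in several of these. Averaged over both of its arrays, its glial markers lay at 7.16 against 5.28 to 5.53 in the other 5 cultures. Its fibroblast markers lay at 6.39 against 5.47 to 5.64, its smooth muscle markers at 7.56 against 6.71 to 7.07 and its tenocyte markers at 6.34 against 5.56 to 5.99. In bulk cultures, more cells of a type and more RNA per cell cannot be told apart. The part of these transcripts in the results was not tested. Vcam1 was not called without culture 1, 4, 9, 12 or 20, and without culture 20 its difference was -0.57 (limma adjusted p = 0.0625).

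In limited medium, 13 of 30 folding genes and 6 of 26 degradation genes of the endoplasmic reticulum and 10 of 39 targets of the integrated stress response rose. The glucose-responsive Txnip and 1 or 2 genes each of sterol and fatty acid synthesis fell. Of the 22180 genes, 324 (1.46%) passed an adjusted p under 0.05 in limma, 161 of them higher in limited medium (0.726%) and 163 lower (0.735%). The median difference over all genes was 0.00 on the log2 scale. Rises were the larger changes, with 28 genes up by at least 1 and 5 down by at least 1. Of the 324 genes, 278 moved the same way in 6 of 6 cultures and 46 in 5 of 6. The 324 were chosen on the mean over these same cultures, so a shared direction is in part built in. The limited and standard arrays did not overlap in 125 of them. Over all genes tested, every limited array lay above every standard array in 104 (0.469%) and below in 137 (0.618%). The number of calls depended on the arrays included and on the model, and it was 59 with the control arrays left out of the fit. With those arrays left out and the culture number added as a fixed block, it was 464. With the control arrays kept and no block, it was 89 without culture 1, 51 without culture 4 and 240 without culture 8. It was 115 without culture 9, 75 without culture 12 and 469 (2.11%) without culture 20.

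**Figure D1:**
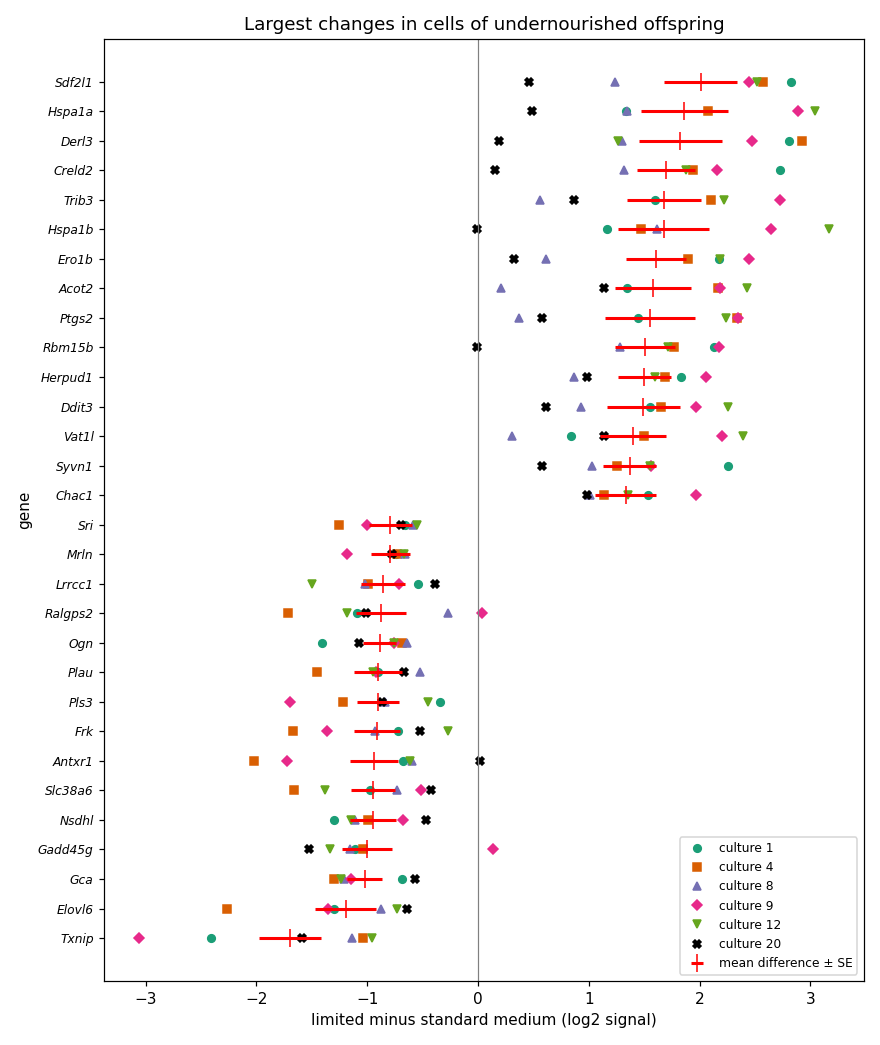
Limited minus standard medium (log2 signal) for the 15 named genes with the largest rise and the 15 with the largest fall, with 1 point per culture and a red bar for the mean difference ± SE. The points of cultures 8 and 20 lie closest to 0 for most rises. Among the falls, culture 4 lies furthest out in several genes, such as Elovl6, Antxr1 and Frk, and culture 9 in Txnip, Pls3 and Mrln. Txnip runs from -0.95 to -3.06.

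The largest rise was in Sdf2l1, a partner of chaperones in the endoplasmic reticulum. Its signal ran from 7.61 through a median of 8.00 to 8.13 on the standard arrays and from 8.53 through 10.31 to 10.57 on the limited arrays. The groups did not overlap, and the lowest limited array was that of culture 20. The difference was 2.01 ± 0.33 SE on the log2 scale, a 4.03-fold rise (limma adjusted p = 0.00342). By culture it was 2.83, 2.58, 1.24, 2.44, 2.51 and 0.46 in cultures 1, 4, 8, 9, 12 and 20. Cultures 8 and 20 thus had the smallest rises of this gene.

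Among folding chaperones and oxidoreductases of the endoplasmic reticulum, 13 of 30 measured genes rose and 0 fell, against 0.726% of all genes that rose, and the median difference of the list was 0.53. Creld2, a stress-induced protein with oxidoreductase activity in this compartment, ran from 8.69 through 9.06 to 9.30 in standard and from 9.33 through 11.08 to 11.41 in limited medium. All limited arrays lay above all standard arrays, with that of culture 20 only just above. The rise was 1.70 ± 0.26 SE (limma adjusted p = 0.00259). Ero1b, the oxidase that feeds disulfide bonds into folding proteins, ran from 5.78 through 6.01 to 6.30 and from 6.43 through 8.05 to 8.22, again with no overlap. It rose by 1.61 ± 0.27 SE (limma adjusted p = 0.0039). Hspa5, also called BiP, is the main chaperone that holds the stress sensors inactive. It ran from 9.97 through 10.06 to 10.42 in standard and from 9.99 through 11.46 to 11.53 in limited medium. The groups overlapped through culture 20 alone, whose limited array was the lowest of the 6 and lay below its own standard array. Hspa5 rose by 1.04 ± 0.21 SE over all 6 cultures (limma adjusted p = 0.012). Without culture 20 the differences of Sdf2l1, Creld2, Ero1b and Hspa5 were 2.32, 2.00, 1.86 and 1.27, each larger than with it.

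The other risen members of this list were Hyou1, which exchanges nucleotides on BiP (1.31 ± 0.26), Dnajb9 (1.27 ± 0.29) and Dnajb11 (0.80 ± 0.19), both J-domain partners of BiP, the secreted stress factor Manf (1.05 ± 0.23), Hsp90b1 (0.88 ± 0.18), the peptidyl-prolyl isomerase Fkbp2 (0.81 ± 0.16), the lectin chaperone Calr (0.74 ± 0.14) and the disulfide isomerases Pdia6 (0.67 ± 0.16) and Pdia3 (0.63 ± 0.14), each given as log2 difference ± SE. Not every member of the folding machinery was called. Dnajc3, which inhibits PERK, stood just outside the threshold at 0.95 ± 0.25 (limma adjusted p = 0.0507). The membrane lectin Canx, the partner of Calr, was at 0.09 ± 0.09 (limma adjusted p = 0.767), and the collagen chaperone Serpinh1 at 0.38 ± 0.14 (limma adjusted p = 0.195). Leaving out a culture changed the count of risen members to 4 without culture 1, 3 without culture 4, 13 without culture 8, 3 without culture 9, 3 without culture 12 and 14 without culture 20.

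**Figure D2:**
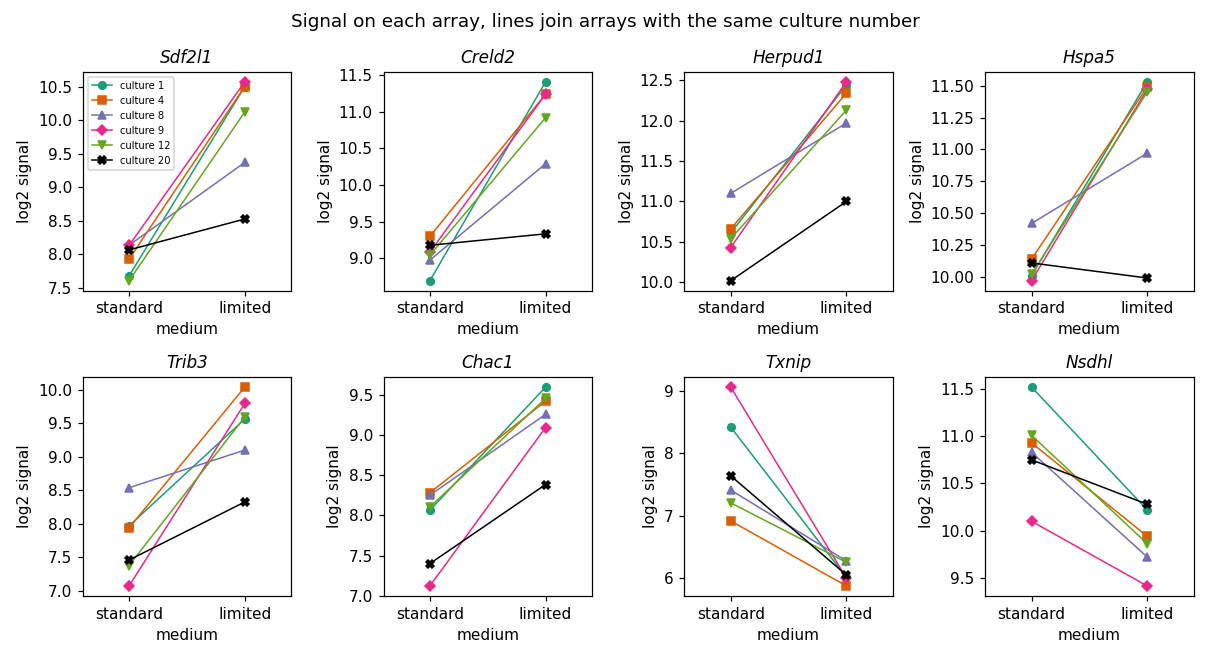
Log2 signal of 8 genes on each undernourished array, standard medium on the left of each panel and limited on the right, with lines that join the arrays of a culture. In Sdf2l1, Creld2 and Hspa5 the line of culture 20 is nearly flat and that of culture 8 is shallow, while the lines of Txnip and Nsdhl fall in all 6 cultures.

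Of 26 genes of the degradation machinery of the endoplasmic reticulum, 6 rose and 0 fell, against 0.726% of all genes that rose. The median difference was 0.23. The 6 include the transcription factor Xbp1, which is also in the list of regulators. Herpud1, which assembles the export complex, ran from 10.02 through 10.58 to 11.10 on the standard and from 11.00 through 12.24 to 12.48 on the limited arrays. The groups overlapped through the low limited array of culture 20, yet within culture 20 Herpud1 was 0.98 higher in limited medium. It rose by 1.50 ± 0.24 SE (limma adjusted p = 0.00273). Syvn1, the ubiquitin ligase of the complex, rose by 1.37 ± 0.24 SE, and its adaptor Sel1l rose by 1.15 ± 0.21 SE. Derl3, a channel subunit, rose by 1.82 ± 0.38 SE, with cultures ranging from 0.19 in culture 20 to 2.92 in culture 4. Edem1, a lectin that hands over misfolded glycoproteins, rose by 1.15 ± 0.26 SE. Apart from Xbp1, the called genes were the membrane complex around Syvn1 and its lectin. The cytosolic extraction factors Vcp (-0.07 ± 0.09), Ufd1 (-0.03 ± 0.11) and Nploc4 (-0.02 ± 0.08) were not called, and the ligase-associated Derl1 (0.45 ± 0.15) and Derl2 (0.54 ± 0.16) did not pass either. Without culture 1, 4, 8, 9, 12 or 20 the counts of risen members were 3, 3, 6, 3, 4 and 8. The list of the translocon, transport coats and cargo receptors had 0 of 50 members called, with a median of 0.13 and 13 at an unadjusted p under 0.05 in limma.

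Promoter sequences were taken from RefSeq (GRCm38.p6, 250 bases before to 50 after each start), and 16990 tested genes had one, among them 139 of the risen and 132 of the fallen genes. They are shown because several risen genes of folding and degradation hold the same short element there. The ER stress element is the string CCAAT, any 9 bases, then CCACG, and was searched on both strands. It stood in the window of 29 genes (0.171% of genes with a promoter), of which 9 rose (6.47% of the 139 risen genes) and 0 fell. The sites of the 9 risen genes and of Dnajc3 and Canx follow, each written 5′ to 3′ on the strand given, with the fixed letters of the element in capitals.
Hspa5 (chr2:34772025-34772043, + strand): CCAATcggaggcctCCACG
Creld2 (chr15:88819520-88819538, - strand): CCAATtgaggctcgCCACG
Alg12 (chr15:88819520-88819538, - strand): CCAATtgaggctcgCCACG
Derl3 (chr10:75893242-75893260, - strand): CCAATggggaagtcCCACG
Ero1b (chr13:12565682-12565700, - strand): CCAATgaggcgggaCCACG
Syvn1 (chr19:6046532-6046550, + strand): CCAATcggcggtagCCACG
Hsp90b1 (chr10:86705638-86705656, - strand): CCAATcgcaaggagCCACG
Hsp90b1 (chr10:86705533-86705551, + strand): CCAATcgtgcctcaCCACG
Calr (chr8:84847075-84847093, + strand): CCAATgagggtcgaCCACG
Pdia6 (chr12:17266491-17266509, + strand): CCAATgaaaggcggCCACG
Dnajc3 (chr14:118937827-118937845, + strand): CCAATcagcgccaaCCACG
Canx (chr11:50325800-50325818, - strand): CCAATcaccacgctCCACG
Creld2 and Alg12, a mannosyltransferase of the endoplasmic reticulum, start back to back on chromosome 15 and share a single site, so these 2 matches are not independent. Hsp90b1 had 2 sites.

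The 29 genes varied widely. The 9 that rose ran from 0.59 ± 0.14 in Alg12 to 1.82 ± 0.38 in Derl3 (log2 difference ± SE), whereas the median over all 29 was 0.14 and 22 of them were above 0. Genes with the same letters that were not called include Canx and Acacb, an acetyl-CoA carboxylase (0.04 ± 0.14). A match is a description of letters and not a sign of binding. The variant element, ATTGG, any base, then CCACG, stood in 9 genes (0.053%), of which Herpud1 and Dnajb11 rose (1.44% of the risen). The amino acid response element, TGATGNAA, stood in 666 genes (3.92%), of which 7 rose (5.04% of the risen) and 2 fell (1.52% of the fallen). Herpud1, Trib3, Chac1 and Atf3 were among the 7. The UPR element, TGACGTGG, stood in 147 genes (0.865%), of which 2 rose (1.44% of the risen). The letters CCACG that end the ER stress elements also begin the reverse of the UPR element, so a stretch can match both. The cyclic AMP element, TGACGTCA, stood in 450 genes (2.65%), of which 5 rose (3.60% of the risen) and 13 fell (9.85% of the fallen). The E-box CACGTG stood in 1561 genes (9.19%), of which 17 rose (12.2% of the risen) and 16 fell (12.1% of the fallen). The sterol element TCACNCCAC stood in 243 (1.43%), of which 2 rose (1.44% of the risen) and 1 fell (0.758% of the fallen).

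The 250 bases before the start of 3 risen genes with different arrangements are given on the + strand. In Hspa5 (chr2:34771840-34772089) the capitals mark the ER stress element, 65 to 47 bases before the start. In Creld2 (chr15:88819396-88819645) they mark the element on the opposite strand, 126 to 108 bases before the start. In Herpud1 (chr8:94386179-94386428) they mark the amino acid response element on the opposite strand, 112 to 105 bases before the start, and then the variant ER stress element, 52 to 42 bases before it.
Hspa5: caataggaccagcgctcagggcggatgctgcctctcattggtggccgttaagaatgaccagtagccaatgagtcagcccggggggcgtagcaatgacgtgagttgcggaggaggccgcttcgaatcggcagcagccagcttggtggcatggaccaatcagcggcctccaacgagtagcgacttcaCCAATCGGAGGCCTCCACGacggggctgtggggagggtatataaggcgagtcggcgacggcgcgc
Creld2: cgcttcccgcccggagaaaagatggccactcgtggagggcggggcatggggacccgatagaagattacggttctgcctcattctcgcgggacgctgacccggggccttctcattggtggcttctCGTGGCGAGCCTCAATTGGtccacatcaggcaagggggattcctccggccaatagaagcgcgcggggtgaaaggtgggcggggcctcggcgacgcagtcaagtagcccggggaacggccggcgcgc
Herpud1: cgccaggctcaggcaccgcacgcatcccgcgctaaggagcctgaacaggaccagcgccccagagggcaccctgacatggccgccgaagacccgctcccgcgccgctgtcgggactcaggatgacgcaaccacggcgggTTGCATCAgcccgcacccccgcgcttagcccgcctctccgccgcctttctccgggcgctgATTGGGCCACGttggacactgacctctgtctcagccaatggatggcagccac
These genes rose by 1.04 ± 0.21, 1.70 ± 0.26 and 1.50 ± 0.24 SE, and in culture 20, where Hspa5 and Creld2 differed by -0.12 and 0.16, Herpud1 differed by 0.98.

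**Figure D3:**
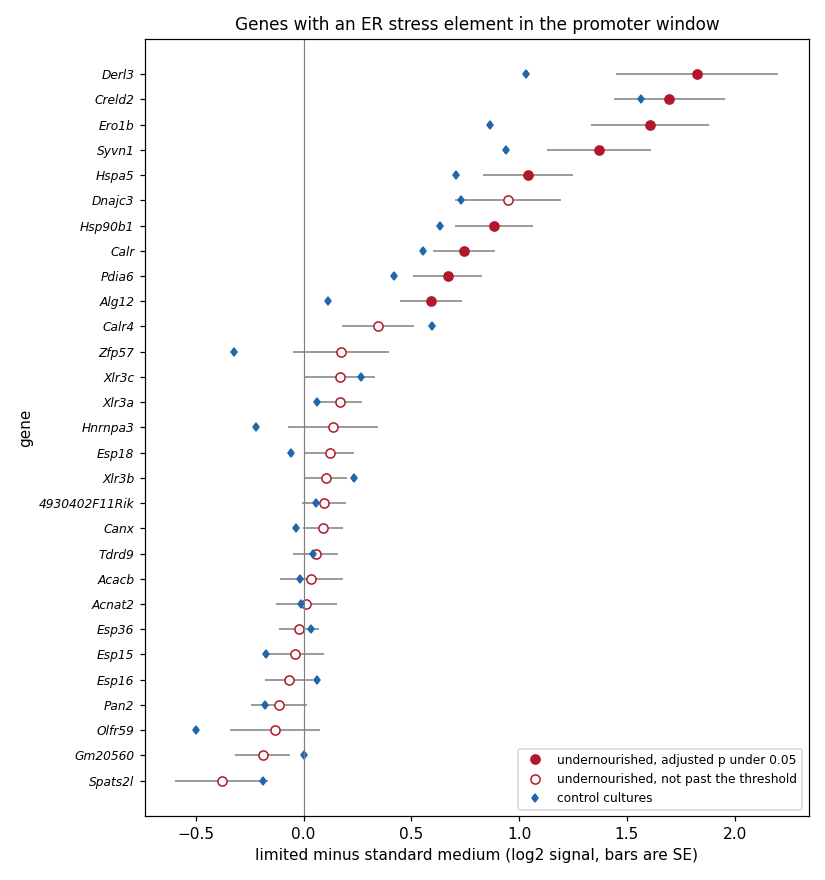
Limited minus standard medium (log2 signal) of the 29 genes with an ER stress element in the promoter window, as the undernourished difference ± SE (circles, filled where the adjusted p was under 0.05) and the control difference (diamonds). The 9 filled circles and Dnajc3 lie above 0.5, and the remaining genes lie between -0.38 and 0.35.

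Among the sensors and transcription factors of the unfolded protein response, 4 of 17 rose and 0 fell, against 0.726% of all genes that rose. The list median was 0.27. Ddit3, the factor CHOP, ran from 6.96 through 7.84 to 8.06 in standard and from 8.31 through 9.18 to 9.71 in limited medium, with no overlap. It rose by 1.49 ± 0.33 SE (limma adjusted p = 0.0204). Atf4 rose by 0.71 ± 0.17 SE, Xbp1 by 0.59 ± 0.15 SE and Ppp1r15a, which brings a phosphatase to eIF2, by 0.90 ± 0.21 SE. For these 3 genes the standard and limited arrays overlapped, and in cultures 8 and 20 Atf4 was only 0.16 and 0.10 higher. The sensors themselves were not called: Eif2ak3 (PERK) was at 0.45 ± 0.20, Ern1 (IRE1) at 0.33 ± 0.14 and Atf6 at 0.32 ± 0.16 (limma adjusted p = 0.329, 0.308 and 0.393). Without culture 1, 4, 9 or 12 limma called 0 members, with 6, 7, 6 and 8 at an unadjusted p under 0.05. Without culture 8, 4 rose, and without culture 20, 4 rose and 1 fell.

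Of 39 targets of the integrated stress response, 10 rose and 0 fell, against 0.726% of all genes that rose. Their median difference, 0.66, was the highest of the 40 pathway lists. Herpud1, Ddit3 and Ppp1r15a are among the 10 and also belong to the lists already described. Trib3, a pseudokinase induced by ATF4 and CHOP, ran from 7.07 through 7.70 to 8.54 in standard and from 8.33 through 9.58 to 10.04 in limited medium. The groups overlapped because the standard array of culture 8 was high and the limited array of culture 20 low. It rose by 1.68 ± 0.33 SE (limma adjusted p = 0.0109) and was higher in all 6 cultures, by 0.56 in culture 8 up to 2.72 in culture 9. Chac1, which degrades glutathione, ran from 7.12 through 8.08 to 8.28 and from 8.38 through 9.34 to 9.60. Its groups did not overlap, and it was higher in all 6 cultures, cultures 8 and 20 included, by 0.98 in culture 20 up to 1.97 in culture 9. The mean rise was 1.33 ± 0.28 SE (limma adjusted p = 0.0155).

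The remaining risen targets were the transcription factors Atf3 (1.10 ± 0.24), Cebpg (0.90 ± 0.19) and Cebpb (0.85 ± 0.19), the leucine sensor Sesn2 (0.99 ± 0.24) and the amino acid transporter Slc38a2 (0.66 ± 0.13), each as log2 difference ± SE. Several large differences did not pass. The cystine transporter Slc7a11 was at 1.80 ± 0.47 (limma adjusted p = 0.0532), the hormone Fgf21 at 1.10 ± 0.48 (0.305) and the cysteine-forming enzyme Cth at 1.30 ± 0.46 (0.171), with limma adjusted p in brackets. The enzymes of amino acid synthesis Asns (0.29 ± 0.21), Psat1 (0.44 ± 0.29) and Phgdh (0.23 ± 0.22) were not called. Of 18 cytosolic aminoacyl-tRNA synthetases, which ATF4 also drives, limma called 0, with 4 at an unadjusted p under 0.05. Of the 18, 17 were above 0, with a median of 0.24. Counts of risen targets were 3, 1, 12, 1, 1 and 14 without culture 1, 4, 8, 9, 12 and 20.

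Of 31 measured genes of the cytosolic heat shock list, 2 rose and 0 fell, against 0.726% of all genes that rose. They were Hspa1a by 1.86 ± 0.39 SE and Hspa1b by 1.67 ± 0.41 SE, and the list median was -0.05. Both encode inducible HSP70 and are near-identical copies, so probes may not separate them and their values are uncertain as 2 measurements. Hspa1a ran from 5.79 through 6.12 to 6.39 in standard and from 6.62 through 7.96 to 9.16 in limited medium, without overlap. Other genes of the heat shock factor program were not called, among them Dnajb1 (0.21 ± 0.12), Hsph1 (0.03 ± 0.12) and Hspb1 (0.06 ± 0.25). Of the pair, Hspa1a was not called without culture 4, 9 or 12, and Hspa1b without culture 1, 4, 8, 9 or 12.

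Txnip, which binds thioredoxin and restrains glucose uptake, had the largest fall. It ran from 6.91 through 7.52 to 9.06 on the standard arrays and from 5.87 through 6.03 to 6.27 on the limited arrays. The groups did not overlap, and the limited arrays lay close together while the standard arrays were spread, highest in cultures 9 and 1. It fell by 1.70 ± 0.28 SE on the log2 scale (limma adjusted p = 0.00342). By culture the difference was -2.41, -1.04, -1.14, -3.06, -0.95 and -1.59 in cultures 1, 4, 8, 9, 12 and 20, and it was called whichever culture was left out. It was the only called member of 9 genes of the MondoA list, against 1.46% of all genes. The related arrestin Arrdc3 was at -0.97 ± 0.26 (limma adjusted p = 0.0588) and Arrdc4 at -0.10 ± 0.09.

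Of the 17 measured genes that make or take up cholesterol, 2 fell and 0 rose, against 0.735% of all genes that fell, and 14 of the 17 differences were below 0 with a median of -0.37. Nsdhl, a sterol dehydrogenase, ran from 10.10 through 10.88 to 11.52 in standard and from 9.42 through 9.90 to 10.28 in limited medium. The groups overlapped because the standard array of culture 9 lay below the limited arrays of cultures 1 (10.22) and 20 (10.28). The gene was lower in limited medium in all 6 cultures. It fell by 0.95 ± 0.21 SE (limma adjusted p = 0.0198). Msmo1, a methylsterol oxidase, fell by 0.64 ± 0.15 SE. The epoxidase Sqle was at -0.67 ± 0.19, Hmgcs1 at -0.54 ± 0.16 and Cyp51 at -0.63 ± 0.21, none of which passed. Among 15 genes of sterol sensing and efflux, 1 fell and 1 rose, against 0.735% and 0.726% of all genes. Srebf2, which encodes SREBP2, fell by 0.42 ± 0.11 SE, and the sterol transporter Npc1l1 rose by 0.46 ± 0.10 SE. Without culture 1, 4, 8 or 12 limma called 0 of the 17, with 9, 9, 9 and 10 at an unadjusted p under 0.05, and 2 fell without culture 9 and 1 without culture 20.

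Elovl6, which elongates saturated and monounsaturated fatty acids, was the 1 gene called among 18 of fatty acid synthesis, against 1.46% of all genes. It fell by 1.20 ± 0.27 SE (limma adjusted p = 0.0265), with cultures between -0.64 in culture 20 and -2.27 in culture 4. The desaturases Fads1 (-0.69 ± 0.19) and Fads2 (-0.74 ± 0.22) did not pass, and Scd1 was at 0.10 ± 0.24 and Fasn at -0.07 ± 0.16. Agpat2, an acyltransferase of triglyceride and phospholipid synthesis, rose by 0.86 ± 0.16 SE (limma adjusted p = 0.00616), in 5 of 6 cultures. Acot2, a mitochondrial acyl-CoA thioesterase, was the 1 called gene of 28 of the carnitine shuttle and beta-oxidation, against the same 1.46%. It ran from 10.22 through 10.84 to 12.02 in standard and from 11.36 through 12.70 to 13.07 in limited medium. The ranges overlapped, because cultures started from different levels, and the gene was higher in limited medium in all 6. It rose by 1.58 ± 0.34 SE (limma adjusted p = 0.0189). The carnitine palmitoyltransferase Cpt1a was at -0.44 ± 0.16 and was not called. Neither Elovl6 nor Acot2 was called without culture 1, 4, 9 or 12, and Agpat2 was not called without culture 4.

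Of 23 genes of glucose uptake and glycolysis, 2 fell, against 0.735% of all genes. They were Pgam1, by 0.50 ± 0.13 SE, and Pfkfb3, which makes an activator of glycolysis, by 0.38 ± 0.09 SE. The glucose transporters Slc2a1 (0.26 ± 0.21) and Slc2a4 (0.33 ± 0.24) and hexokinase Hk2 (0.48 ± 0.18) were not called. Ppargc1b, a coactivator of mitochondrial genes, fell by 0.60 ± 0.12 SE, with a difference of 0.00 in culture 20, whereas Ppargc1a was at -0.21 ± 0.23 and not called. Of 62 nuclear genes of oxidative phosphorylation, limma called 0, with 8 at an unadjusted p under 0.05, and 47 lay above 0 with a median of 0.10.

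Of 34 proteasome subunits, 4 fell and 0 rose, against 0.735% of all genes that fell. Of the 34, 29 lay below 0 with a median of -0.13. Psmd14, the deubiquitinase of the lid, ran from 8.33 through 8.58 to 8.85 in standard and from 7.72 through 7.92 to 8.09 in limited medium, without overlap. It fell by 0.66 ± 0.10 SE (limma adjusted p = 0.00259) and was called whichever culture was left out. The other 3 were Psma1 (-0.40 ± 0.10), Psmd1 (-0.40 ± 0.08) and Psmd12 (-0.33 ± 0.09), each without overlap between the groups. Without culture 1, 4, 8, 9, 12 or 20 the counts were 1, 1, 2, 2, 1 and 2.

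Among 32 genes of the cell cycle and DNA replication, 1 fell, against 0.735% of all genes. This was the G1 kinase Cdk6, by 0.79 ± 0.17 SE, which was not called without culture 1, 4, 9 or 12. The list median was -0.24, and by culture it was -0.14, -0.93, -0.05, 0.05, 0.04 and -0.38 in cultures 1, 4, 8, 9, 12 and 20. Culture 4 stood apart because the list averaged 8.08 on its standard array, against 6.90 to 7.48 on the other standard arrays and 6.81 to 7.12 on the limited arrays.

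Of 41 genes of the contractile apparatus limma called 0, against 1.46% of all genes, with 3 at an unadjusted p under 0.05. Of 23 genes of excitation-contraction coupling, 1 rose and 1 fell, against 0.726% and 0.735% of all genes. Mrln encodes myoregulin, a micropeptide that restrains the calcium pump of the sarcoplasmic reticulum. It ran from 8.39 through 8.59 to 8.78 in standard and from 7.59 through 7.81 to 7.97 in limited medium, without overlap, and fell by 0.79 ± 0.17 SE (limma adjusted p = 0.0219). It was lower in every culture, with differences from -0.66 in culture 8 to -1.18 in culture 9. Cacnb1, the beta subunit of the muscle calcium channel, rose by 0.48 ± 0.09 SE and was not called without culture 4, and Mrln was not called without culture 1, 4, 9 or 12. Sri (sorcin), a calcium-binding regulator of the release channel that is not in this list, fell by 0.79 ± 0.19 SE. Jam3, an adhesion molecule of the myogenic list, fell by 0.63 ± 0.16 SE, 1 of 25 against 0.735% of all genes. Srf, the factor that drives muscle actin genes, rose by 0.52 ± 0.10 SE and was higher in all 6 cultures. The nuclear receptor Nr4a2 rose by 0.68 ± 0.17 SE. Srf and Nr4a2 were 2 of 32 in their list, against 0.726% of all genes that rose.

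Of 28 imprinted genes, 3 fell, Ddc (-0.62 ± 0.13), Sgce (-0.58 ± 0.13) and the antisense transcript Airn (-0.47 ± 0.11), and 0 rose, with a median of -0.15, against 0.735% of all genes that fell. Without culture 1, 4 or 12 limma called 0 of the 28, with 8, 7 and 6 at an unadjusted p under 0.05, and 2 fell without culture 9. Airn overlaps Igf2r on the other strand, Igf2r was at -0.36 ± 0.16, and whether the probes separate them was not tested. The clock genes Nfil3 (0.86 ± 0.17) and Arntl (0.43 ± 0.11) rose, 2 of 19 against 0.726% of all genes. Neither was called without culture 1, 4, 9 or 12. Other called members of the lists were Klf15 (0.49 ± 0.12), a glucocorticoid-induced factor, Atp6v1a (-0.64 ± 0.14), a subunit of the lysosomal proton pump, and the deacetylase Hdac9 (-0.58 ± 0.14). Ptgs2, the inducible cyclooxygenase, rose by 1.55 ± 0.40 SE and lay at the threshold (limma adjusted p = 0.0494). In all, 27 of the 40 pathway lists had a called member, a number that became 8, 6, 25, 13, 8 and 31 without culture 1, 4, 8, 9, 12 and 20, and the 13 without had medians from -0.09 to 0.24.

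Most called genes, 262 of 324, were in none of the lists. Rbm15b, an RNA-binding protein of the complex that methylates adenosine in RNA, rose by 1.51 ± 0.27 SE in 5 of 6 cultures, with -0.01 in culture 20. Vat1l rose by 1.40 ± 0.30 SE. Gca, the calcium-binding protein grancalcin, ran from 6.44 through 6.84 to 7.45 in standard and from 5.46 through 5.88 to 6.15 in limited medium, without overlap, and fell by 1.02 ± 0.16 SE (limma adjusted p = 0.00273). Ogn, a small leucine-rich proteoglycan of the matrix, ran from 11.64 through 11.99 to 12.21 and from 10.64 through 10.94 to 11.57, also without overlap, and fell by 0.89 ± 0.15 SE (limma adjusted p = 0.00356). Both were lower in all 6 cultures.

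The remaining large falls were in the stress gene Gadd45g (-1.0 ± 0.23), the amino acid transporter Slc38a6 (-0.95 ± 0.20), the collagen-binding receptor Antxr1 (-0.94 ± 0.22), the tyrosine kinase Frk (-0.91 ± 0.21), the actin-bundling protein Pls3 (-0.90 ± 0.19), urokinase Plau (-0.90 ± 0.21), the Ral exchange factor Ralgps2 (-0.87 ± 0.23) and the centriolar protein Lrrcc1 (-0.86 ± 0.20), each as log2 difference ± SE. Of these 8 genes, Slc38a6 alone had groups that did not overlap. The standard array of culture 4 was the highest standard array in Gadd45g, Slc38a6, Antxr1, Frk, Plau and Ralgps2, but not in Pls3 and Lrrcc1. When cultures were left out in turn, 39 of the 324 genes stayed called in every omission, 19 of them risen and 20 fallen. Of the genes described above, Sdf2l1, Creld2, Ero1b, Herpud1, Syvn1, Sel1l, Rbm15b, Txnip, Gca, Ogn and Psmd14 were among the 39. Another 33 were lost in every omission, Pgam1, Psma1, Psmd12 and Jam3 among them. Without culture 20 alone, 9 of the 65 named genes were no longer called by limma, those 4, Vcam1, Msmo1 (-0.58, adjusted p = 0.0724), Klf15 (0.43, 0.0724), Nr4a2 (0.61, 0.0836) and Ralgps2 (-0.84, 0.0872), with the difference without culture 20 and its limma adjusted p in brackets. The other 4 were at -0.47 in Pgam1, -0.34 in Psma1, -0.30 in Psmd12 and -0.65 in Jam3.

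The size of the response varied among cultures, which was not tested. For the 161 risen genes, chosen on the mean of these same cultures, the median difference by culture was 0.73, 0.80, 0.35, 0.71, 0.65 and 0.39 in cultures 1, 4, 8, 9, 12 and 20. Cultures 8 and 20 were low in this respect, with 154 and 143 of the 161 genes above 0. The 163 fallen genes were more even, with medians between -0.65 and -0.42, and 152 of them were below 0 in culture 20. The folding list had medians of 0.82, 0.61, 0.14, 1.14, 0.91 and -0.21 in the same order. Culture 20, the one with higher glial and fibroblast markers, was thus the single culture with a folding median below 0, and its folding genes averaged 9.08 in standard and 8.92 in limited medium. The integrated stress targets had medians of 0.15 in culture 8 and 0.15 in culture 20, against 0.47 to 1.51 in the others. The cholesterol list was below 0 in all 6, from -0.67 in culture 12 to -0.08 in culture 9. Culture 9 thus had the highest stress medians and the cholesterol median closest to 0. Its standard array was low in the integrated stress targets, at 7.92 against 8.29 to 8.75 on the other standard arrays. Its limited array was at 9.47 against 8.52 to 9.43. The cholesterol list was likewise low on its standard array, at 8.23 against 8.61 to 8.88, with 8.25 against 8.26 to 8.46 on the limited arrays. Without culture 20, limma called 469 genes, of which 268 were among the 324, and the folding median was 0.71.

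**Figure D4:**
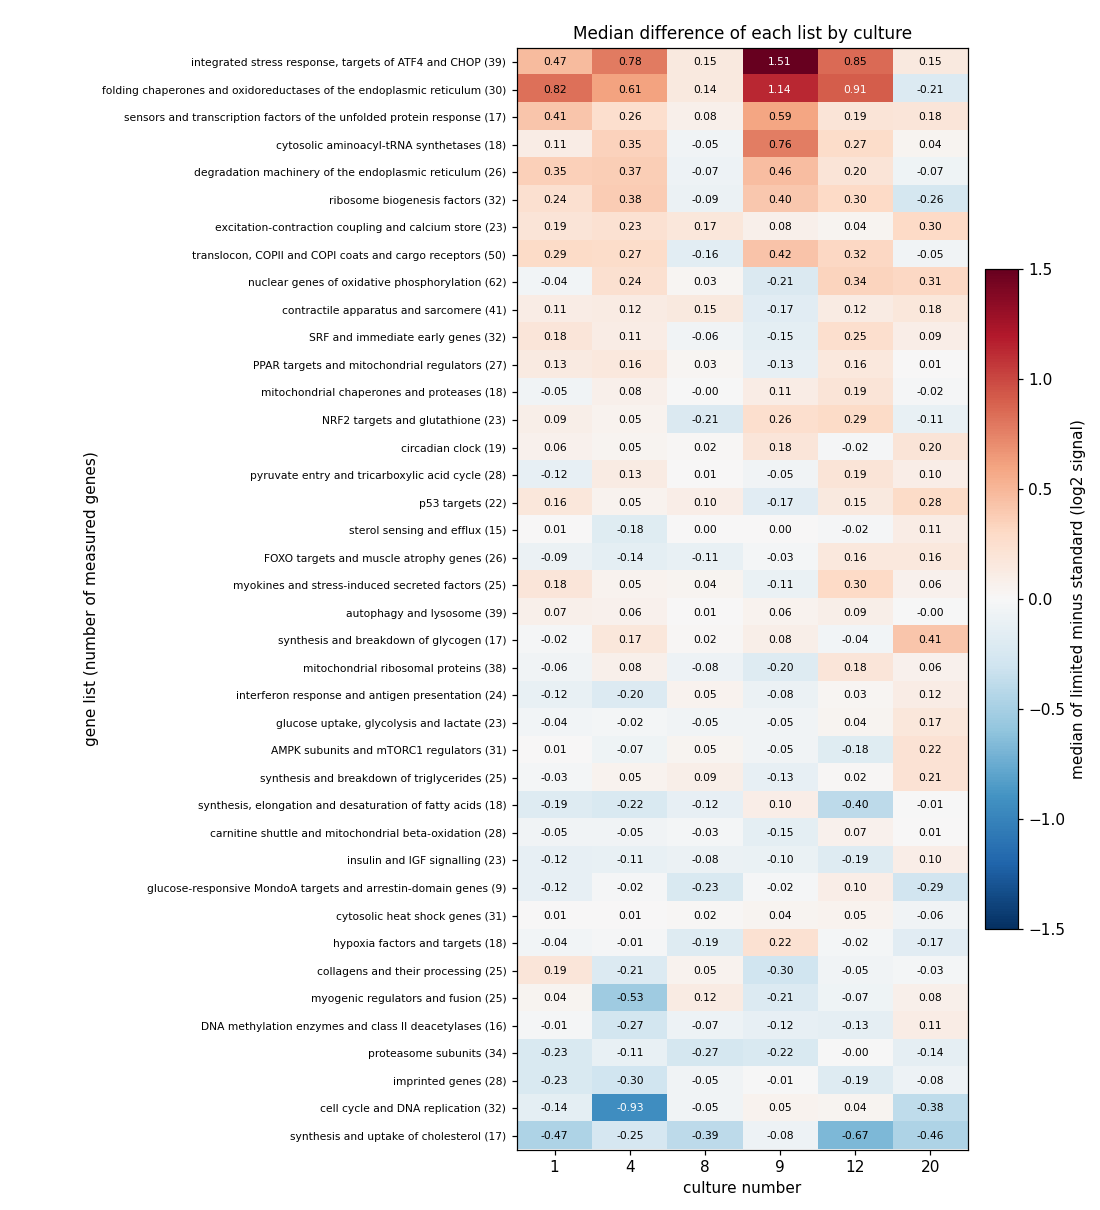
Median over the genes of each of 40 pathway lists of limited minus standard medium (log2 signal), with 1 column per undernourished culture and lists sorted by their median over the group means. The top rows, folding and integrated stress, are high in cultures 1, 4, 9 and 12 and near or below 0 in cultures 8 and 20, and the bottom row, cholesterol, is below 0 in all columns.

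Whether the response differed from that of control offspring was tested in the same limma fit as the difference between the 2 medium effects. Of 22180 genes, 0 passed (0%), with 643 at an unadjusted p under 0.05 and a smallest adjusted p of 0.9998, and 0 passed under every alternative fit run. In control cultures 76 genes (0.343%) were called, of which 44 were also called in undernourished cultures. These 44 are 13.6% of the undernourished and 57.9% of the control calls. Of the 324 genes, 317 had the same sign in control cultures. Their median size was 0.54 in undernourished and 0.37 in control cultures, and 296 were larger in the former, but the genes were chosen for their size there. Sdf2l1 was at 1.38 ± 0.33 SE in control cultures, Creld2 at 1.56 ± 0.26, Herpud1 at 1.08 ± 0.24, Trib3 at 0.74 ± 0.33, Hspa1a at 0.58 ± 0.39 and Txnip at -1.22 ± 0.28. The folding list had a median of 0.31 in control against 0.53 in undernourished cultures, the integrated stress targets 0.23 against 0.66 and the cholesterol list -0.29 against -0.37. None of these list differences was tested.

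**Figure D5:**
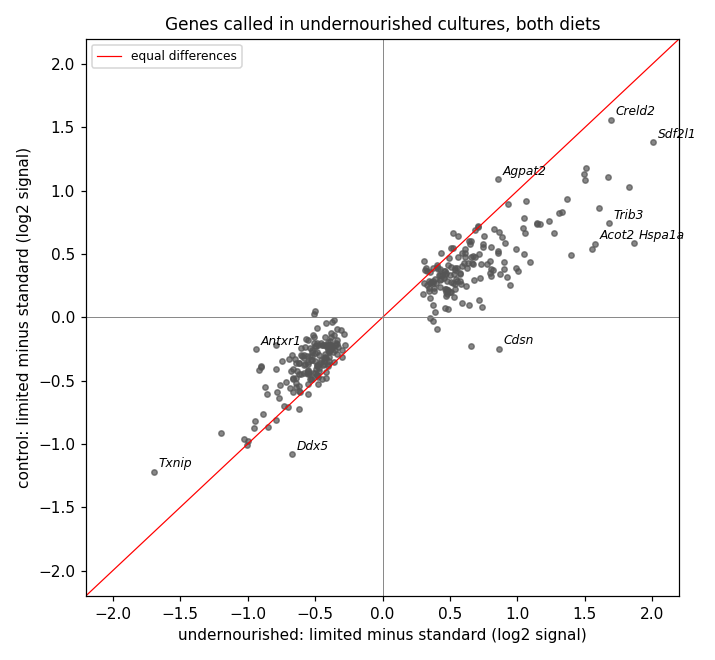
Limited minus standard medium (log2 signal) of the 324 genes called in undernourished cultures, with the undernourished difference on the horizontal and the control difference on the vertical axis, 1 point per gene. Nearly all points, 317, lie in the quadrants of equal sign and most lie closer to 0 on the control axis, for example Trib3 and Hspa1a, while Agpat2 and Ddx5 lie further out in control cultures.

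The genes with the smallest p for the difference between diets did not pass the threshold. The most separated was Cdsn, a corneodesmosome protein, at 0.86 ± 0.20 in undernourished and -0.25 ± 0.20 in control cultures (log2 difference ± SE), a gap of 1.11 ± 0.28. Tapbpl, an antigen-processing protein, was at 0.72 ± 0.12 and 0.14 ± 0.12. In the other direction, Wnt10a was at -0.05 and 0.43 and Usp46, a deubiquitinase, at -0.50 and 0.05. The other 6 of these 10 genes were Slc5a5, Trim46 and Sh2d6, higher in undernourished, and Zfp296, Med28 and Ciao3, higher in control cultures.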

How the data were processed

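RNA of 24 samples was measured on single-colour arrays, 1 array per sample, after Trizol extraction and biotin labelling by the WT PLUS procedure. Per the submitters' processing notes, the deposited values were made with RMA in Affymetrix Expression Console. Versions and genome build, not given in the sources used here, stay unknown. The values were read as log2 signal from their range, 1.69 to 14.1, since the base of the logarithm is not stated by the authors. Precision is limited by the number of arrays, and dim genes were kept. Of 41345 transcript clusters, 23521 had 1 gene symbol, 1814 had more and 16010 are unnamed here. Symbols came from the platform annotation, updated through a RefSeq table (GRCm38.p6) that held 23328 of them. A gene with several clusters was represented by the one of highest mean level, which gave 22180 genes.

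Samples were grouped by their labels. Genes were fitted with limma 3.58.1 in R 4.3.3 (lmFit and eBayes) over all 24 arrays in 4 groups of 6, so that control arrays add to the estimate of the spread. Two-sided p-values were adjusted by Benjamini-Hochberg over the 22180 genes, and called means an adjusted p under 0.05. Errors of differences are SE from this fit. The text names called genes with the 15 largest rises and 15 largest falls whose higher group mean reached 6.02, the median of tested genes, up to 6 called members per list, and other list members where the list is described. Model, clone, small RNA and receptor-family genes were not named (19 of the 324). The 10 genes of smallest p between diets are named too, and Alg12, Acacb and Ddx5 were picked out after their values were seen. The comparison, its 49 gene lists (40 of pathways, 9 of cell type markers) and the motifs were chosen with earlier results of these data known, and no test was run on a list. The fit was tested on simulated data.

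Alternatives were the undernourished arrays alone, the culture number as a fixed or random block, each culture left out, quantile normalization, a filter on dim genes, mean clusters, other variance settings, the last number in the title as covariate, and other thresholds.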

Additional observations from a re-analysis of the deposited data

Results flagged for a closer look

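Of 135 groups of 6 arrays that were tested, 6 held an array apart from the other 5 by Dixon's test. Chance alone sets about 1 in 20 groups apart, and these 6 are no more than that share. In limited medium, culture 20 was low for the degradation factor Herpud1, at 11.00 against 11.97 to 12.48 in the other 5 cultures, and for the secreted stress factor Manf, at 6.74 against 7.77 to 8.34. In the same medium it was high for the deacetylase Hdac9, at 6.63 against 5.85 to 6.11. In standard medium culture 20 was high for the proteasome subunit Psmd12, at 10.87 against 10.67 to 10.74. The leucine sensor Sesn2 was low on the standard array of culture 9, at 6.85 against 7.59 to 8.03. The clock gene Arntl was low on the limited array of culture 8, at 8.15 against 8.49 to 8.66. The cause of these values was not tested.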

How the results depend on the processing

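The 324 calls of the medium effect became 59 with the 12 undernourished arrays alone, 822 with culture number as a random block, 571 when arrays were weighted, 622 at the looser threshold of 0.1 on the adjusted p and 192 where a difference of 0.5 or more was also required. Leaving out each culture gave 51 to 469. Quantile normalization, mean clusters, a filter on dim genes, a trended robust variance and the title number as covariate gave 284 to 471. With the 12 undernourished arrays alone and the culture number as a fixed replicate block, 464 were called, against the 59 of the same arrays without a block. Deviations from the group means of arrays with the same number correlated, over genes, at 0.51, 0.28, 0.42, -0.05, 0.02 and 0.56 in undernourished cultures 1, 4, 8, 9, 12 and 20 and at 0.19 to 0.46 in the 6 control cultures. Not every undernourished pair was above 0.1, so the number was not treated as a pairing there. In undernourished cultures 4 of 6 numbers and in control cultures 6 of 6 matched their own number best, as a hint from the data and not from the design.

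Calls among list members, 62, became 15 with the undernourished arrays alone, 118 with the random replicate block, 100 when arrays were weighted and 101 at the threshold of 0.1, and 9 to 83 when cultures were left out. With the undernourished arrays alone and the fixed block, 79 list members were called. Called genes of 1 direction in all cultures, 278, ranged from 50 to 428 over the omissions. The 76 calls in control cultures became 443 with the random replicate block, 149 with the filter on dim genes and 275 with array weights, and ranged from 35 to 162 as undernourished cultures were left out of the shared spread. The share of rises among the calls, 49.7%, ran from 37.4% without culture 9 to 58.8% without culture 8. The difference between diets had 0 calls by limma throughout. None of the 65 named genes reversed under any setting that was run. The undernourished arrays alone, the replicate blocks and the variance setting leave the differences unchanged, so no gene could reverse there. All called genes also moved 1 way in 5 or 6 of 6 cultures, which leaves little room for a reversal in the omissions. With the undernourished arrays alone 17 of the 65 stayed called without a block, and 56 with the culture number as a fixed block. Over the omissions 12 (without culture 4) to 56 (without culture 20) stayed called. Fewer samples enter the fits with omissions, and other causes of these shifts were not tested. With 6 arrays a group, the number of arrays limits the precision.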
